A study of Sus scrofa with 29 samples.

Results

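The class II genes of the pig major histocompatibility complex (MHC) and CD74, their shared chaperone, were followed in RNA scraped from the inner surface of 2 arteries. Their probe sets were taken by gene symbol from the platform annotation: SLA-DRA, SLA-DRB1, SLA-DQA1, SLA-DQB1, SLA-DMA, SLA-DMB, SLA-DOA, SLA-DOB and CD74, where SLA stands for swine leukocyte antigen. The symbols picked 11 of the 23999 non-control probe sets, for 8 of the 6765 genes with a symbol of their own on the array. SLA-DRB1 had 3 probe sets, SLA-DMA had 2, the other six genes had 1 each, and SLA-DOB had none. A further 3 probe sets list SLA-DRB1 together with another locus and were not counted as members.

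MHC class II molecules are pairs of an alpha and a beta chain that carry peptides from the endosome to the cell surface, where CD4+ T cells read them. SLA-DRA with SLA-DRB1 and SLA-DQA1 with SLA-DQB1 form the molecules shown on the surface. CD74, the invariant chain, fills their groove until endosomal proteases cut it down, SLA-DMA and SLA-DMB together form the DM molecule that exchanges the last fragment of CD74 for peptide, and SLA-DOA is the alpha chain of DO, which holds DM back. CIITA is the coactivator that switches most of these genes on, and in pigs, unlike in rodents, endothelial cells carry class II molecules without an inflammatory stimulus. In the RefSeq gene table of the Sscrofa11.1 assembly the class II genes follow each other on 1 chromosome in the order SLA-DRA, SLA-DRB1, SLA-DQA1, SLA-DQB1, SLA-DOB, SLA-DMB, SLA-DMA and SLA-DOA. SLA-DMB, SLA-DMA and SLA-DOA are direct neighbours there, and CD74 lies on another chromosome.

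The arteries were the brachial artery, which runs down the forelimb, and the internal mammary artery, which runs inside the chest wall. All pigs were healthy. Exercised pigs followed a treadmill programme of 16 to 20 weeks, which built up to 5 days a week, and were sampled about 24 h after the last bout, whereas sedentary pigs stayed in their enclosures. There were 7 brachial arrays from sedentary pigs, 7 brachial arrays from exercised pigs, 7 internal mammary arrays from sedentary pigs and 8 from exercised pigs. In all, 15 pigs gave these 29 arrays. Both arteries were sampled in 14 pigs, and by the sample labels exercised pig 12_2 contributed the internal mammary artery alone. The design text of the series instead gives the single-artery pig a brachial array, although its own array counts match the labels. Each array holds the RNA of 1 artery of 1 pig.

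Array medians lay between 7.13 and 7.28 on the log2 scale, and any pair of arrays correlated at 0.965 to 0.995 over probe sets. Of 15 endothelial markers 13 were on the array, with PECAM1 at a mean of 13.97, NOS3 at 12.43, TEK at 12.40 and CDH5 at 12.39 on the log2 scale. The scrapes were not of endothelium alone: 12 of 15 smooth muscle markers were measured, with ACTA2 at a mean of 13.76, and so were 10 of 14 macrophage markers, with LAPTM5 at 11.89. The 28S/18S ratio of the RNA averaged 1.38 and 1.41 in sedentary and exercised brachial samples and 1.19 and 1.33 in sedentary and exercised internal mammary samples. No detection calls were used. In such bulk RNA fewer cells that carry a transcript and less of it per cell cannot be told apart, and this holds for every result that follows.

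Most class II probe sets were bright. SLA-DRA, SLA-DQA1, SLA-DQB1, CD74 and the brightest SLA-DRB1 probe set had means of 12.69 to 13.30 on the log2 scale, each above 98.5% to 99.2% of all probe sets. SLA-DMA was at 11.90 by its brightest probe set and at 9.98 by the other one, SLA-DMB at 11.34 and SLA-DOA at 10.77, so the DM and DO genes were measured further below the top of the scale. The other two SLA-DRB1 probe sets were dim, at 4.78 and 4.25, with only 18.6% and 13.4% of probe sets below them. Signals of different probe sets are not comparable as amounts of RNA.

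**Figure D1:**
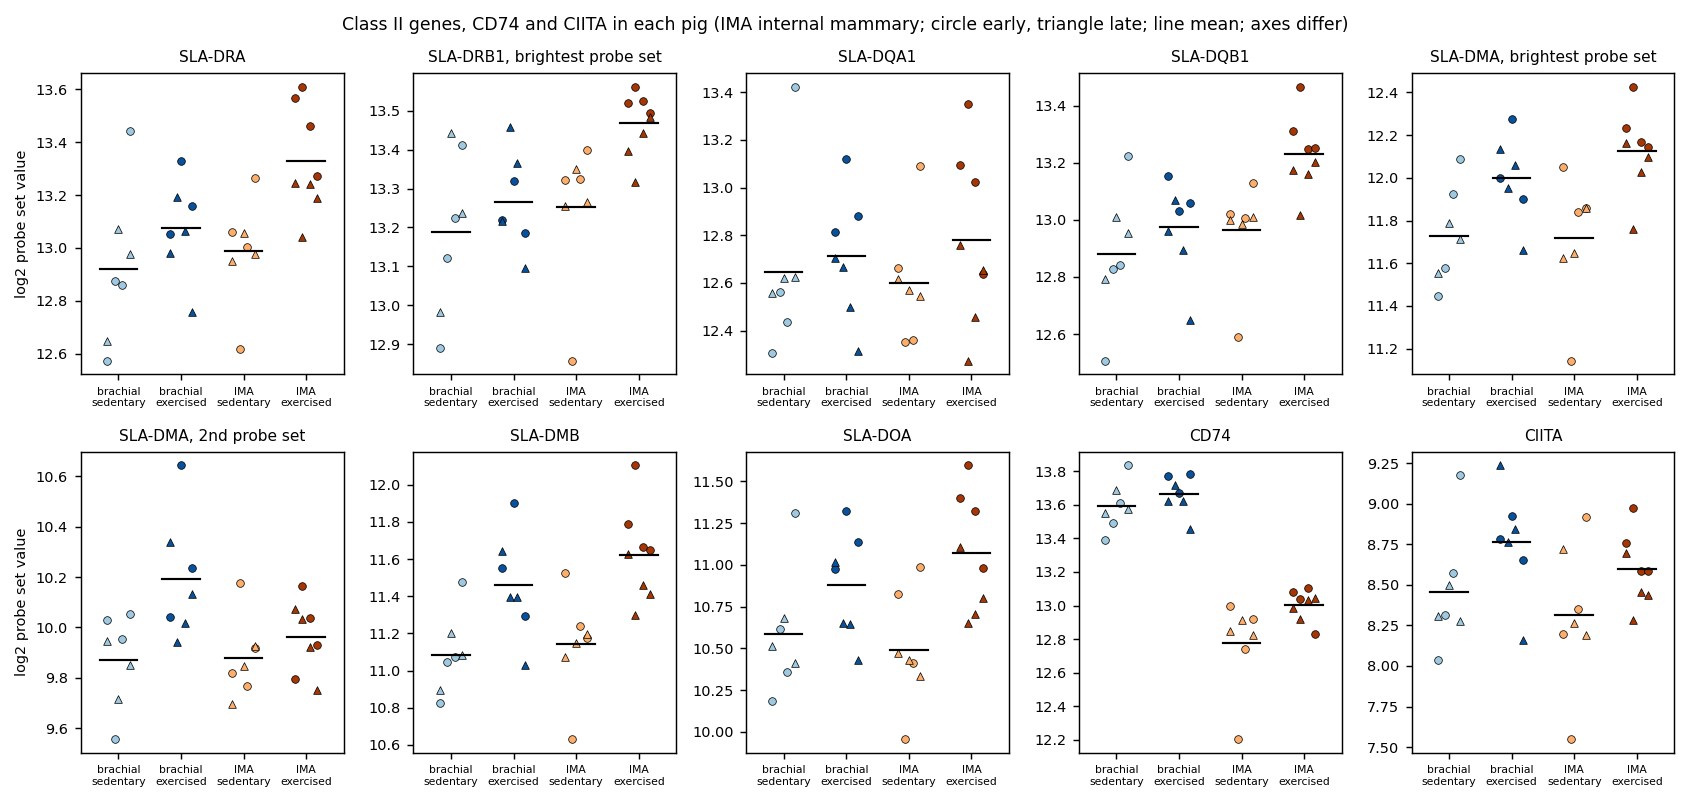
Log2 probe set value (vertical axis, a separate scale in each panel) of 7 class II genes, CD74 and CIITA in each pig, by artery and training; the 2 dim SLA-DRB1 probe sets are left out, circles are the 8 pigs with the earlier dates in the labels, triangles the 7 with the later dates, and lines are group means. SLA-DMA (brightest probe set), SLA-DMB and SLA-DOA sit higher in the exercised groups with overlapping ranges, while CD74 splits by artery, with every brachial value above every internal mammary value.

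The first question was whether exercise training altered class II transcripts in each artery and over both. In the main fit, with the pig as a random block, SLA-DMB, SLA-DMA and SLA-DOA were called higher with training, averaged over both arteries. Their rise was 1.27-fold to 1.36-fold, while no DR, DQ or CD74 probe set passed the test. With the arteries of each pig averaged first, no member passed. Of the 11 probe sets 3 were called higher and 0 lower, where 4.68% of all probe sets were called, 2.88% of them higher and 1.8% lower (limma, Benjamini-Hochberg over all 23999 probe sets, adjusted p under 0.05). All 11 estimates were above 0, with a median log2 change of 0.18 against 0.01 over all probe sets. Training varies between pigs only, so pig means were also compared, over the 14 pigs with both arteries. The number was then 0 of 11, with SLA-DMB at 0.43, SLA-DMA at 0.34 and SLA-DOA at 0.45 (limma adjusted p = 0.0570, 0.0856 and 0.148), where 1.52% of all probe sets passed. The random block used the same pig correlation, 0.255, for all probe sets. After subtraction of training group means, r between arteries was higher for SLA-DMB (0.37), SLA-DMA (0.29) and SLA-DOA (0.61). The SE of their average change may therefore be too small in the main fit. The members vary together from pig to pig, so their 11 estimates are not independent of each other.

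SLA-DMB, the beta chain of DM, had the lowest p of the class II genes. Its internal mammary log2 values ran from 10.63 through a median of 11.17 to 11.52 in sedentary pigs and from 11.30 through 11.64 to 12.10 in exercised pigs. Its brachial values ran from 10.82 through 11.07 to 11.48 in sedentary pigs and from 11.03 through 11.40 to 11.90 in exercised pigs. The groups overlapped in both arteries, although all 8 exercised internal mammary values and 6 of 7 exercised brachial values lay above the sedentary mean. The average change was 0.43 ± 0.10 on the log2 scale (SE; limma adjusted p = 0.0120), or 1.35-fold, and it passed with each of the 15 pigs left out in turn (0.36 to 0.48).

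SLA-DMA, the alpha chain of DM, moved much as SLA-DMB did by its brightest probe set. Its internal mammary log2 values ran from 11.14 through a median of 11.84 to 12.05 in sedentary pigs and from 11.76 through 12.15 to 12.43 in exercised pigs. Its brachial values ran from 11.45 through 11.71 to 12.09 in sedentary and from 11.66 through 12.00 to 12.28 in exercised pigs. These groups overlapped as well, again with 8 of 8 and 6 of 7 exercised values above the sedentary mean. The average log2 change was 0.34 ± 0.09 (SE; limma adjusted p = 0.0292), or 1.27-fold. The call was lost without any 1 of pigs 10_1, 10_5, 11_1, 11_3, 12_5, 13_2 or 15_2, where the change was 0.28 to 0.35 and the highest adjusted p was 0.0782.

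The other SLA-DMA probe set did not pass on average, with a log2 change of 0.20 ± 0.08 (SE; limma adjusted p = 0.132). By artery it ran the other way round from the brightest one: its change was 0.32 ± 0.10 in brachial and 0.08 ± 0.10 in internal mammary samples (SE; limma adjusted p = 0.0862 and 0.794), against 0.27 ± 0.12 and 0.41 ± 0.11 for the brightest (limma adjusted p = 0.254 and 0.0903). In the brachial artery it was the only member with all 7 exercised values above the sedentary mean, running from 9.94 through a median of 10.13 to 10.64 against 9.56 through 9.95 to 10.05. Which transcript parts the 2 probe sets read was not examined, and the difference between them was not tested.

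SLA-DOA, the alpha chain of DO, had the widest spread between pigs among the genes called higher in the main fit. Internal mammary log2 values ran from 9.96 through a median of 10.43 to 10.99 in sedentary pigs and from 10.65 through 11.04 to 11.60 in exercised pigs. Brachial values ran from 10.19 through 10.51 to 11.31 in sedentary and from 10.43 through 10.98 to 11.32 in exercised pigs. The internal mammary groups overlapped only partly, with 8 of 8 exercised values above the sedentary mean. In the brachial artery 6 of 7 exercised values lay above it. The ranges there overlapped almost wholly through sedentary pig 12_3 at 11.31, where the next sedentary value was 10.68. The average log2 change was 0.44 ± 0.13 (SE; limma adjusted p = 0.0458), or 1.36-fold. This call lay close to the threshold: it held in 5 of the 15 fits that left out a pig and was lost without any 1 of pigs 10_1, 10_5, 11_1, 11_3, 11_4, 12_2, 12_5, 13_2, 15_1 or 17_1 (0.37 to 0.45; highest limma adjusted p = 0.116).

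The chains of the surface molecules and CD74 gave smaller estimates than the 3 probe sets called, and no test compared them with those. Leaving out the dim SLA-DRB1 probe sets, they were also brighter, at means of 12.69 to 13.30 against 10.77 to 11.90. Whether brightness near the top of the scale affects the size of a change was not tested. SLA-DRA had an average log2 change of 0.25 ± 0.09 (SE; limma adjusted p = 0.103), which passed when sedentary pig 12_3, the highest sedentary pig in both arteries, was left out (0.31, adjusted p = 0.0238). SLA-DQB1 changed by 0.18 ± 0.07, the brightest SLA-DRB1 probe set by 0.15 ± 0.07 and SLA-DQA1 by 0.12 ± 0.12 (SE; limma adjusted p = 0.156, 0.218 and 0.640). CD74 changed by 0.15 ± 0.07 (SE; limma adjusted p = 0.254). Their 95% confidence intervals reached up to 0.42 for SLA-DRA, 0.33 for SLA-DQB1, 0.28 for SLA-DRB1, 0.36 for SLA-DQA1 and 0.29 for CD74, so changes as large as that of SLA-DMA lie inside 2 of these 5 intervals. The dim SLA-DRB1 probe sets gave 0.08 and 0.04.

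**Figure D2:**
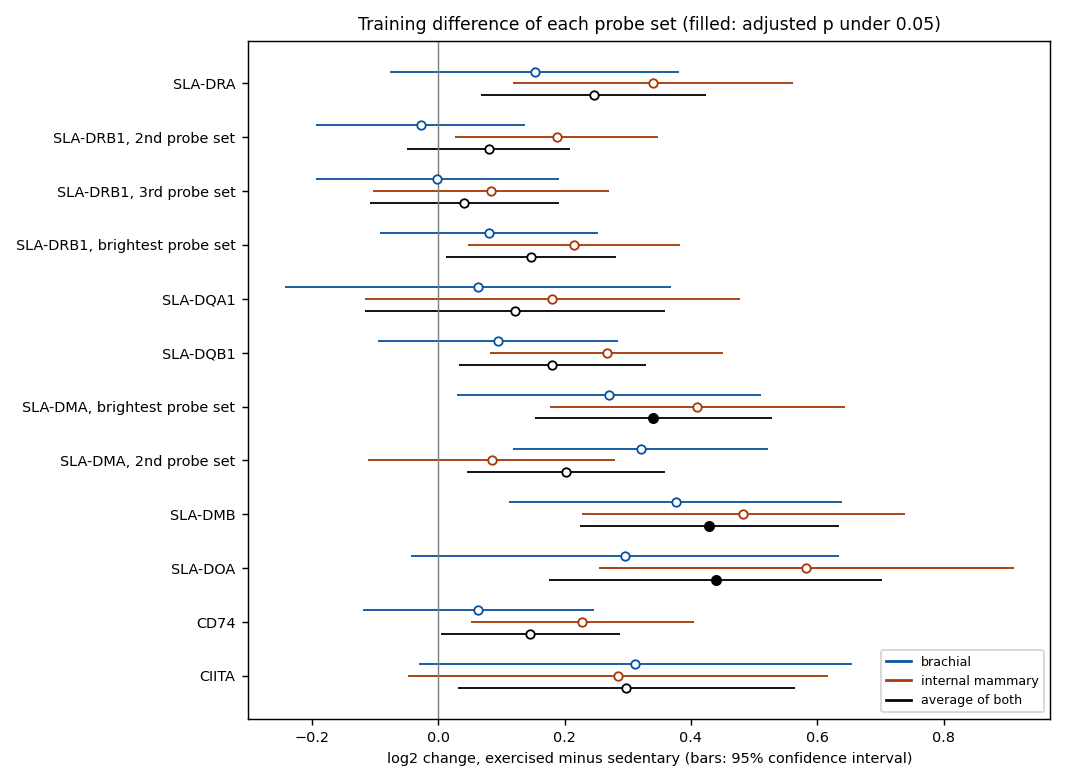
Log2 change of exercised minus sedentary pigs (horizontal axis, with 95% confidence intervals) for the 11 probe sets and CIITA in the brachial artery, the internal mammary artery and their average; filled points have a limma adjusted p under 0.05 over all probe sets. Filled points are the averages of SLA-DMA (brightest probe set, 0.34), SLA-DMB (0.43) and SLA-DOA (0.44), and no probe set passed within a single artery in this fit.

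Within a single artery 0 of 11 probe sets passed. In the internal mammary artery, where 0.596% of all probe sets passed and 0.458% were higher, all 11 estimates were above 0 with a median log2 change of 0.23, and SLA-DOA (0.58 ± 0.16), SLA-DMB (0.48 ± 0.12) and SLA-DMA (0.41 ± 0.11) were nearest the threshold (SE; limma adjusted p = 0.0860, 0.0630 and 0.0903). That count depended on the setting, and so did the share of all probe sets that passed. It was 6 with the endothelial marker mean as a covariate, where 1.86% of all passed. It was 3 without pig 10_2 (SLA-DMA, SLA-DMB and SLA-DOA, 1.21% of all) and 2 without pig 14_3 (SLA-DMA and SLA-DMB, 0.996% of all). Without pig 12_3 it was 1 (SLA-DOA, 0.25% of all). In the brachial artery, where 1.63% of all probe sets passed and 1.02% were higher, 9 estimates were above 0 and the median was 0.09. No member had every exercised pig above every sedentary pig in either artery, as 0.383% of all probe sets had on brachial arrays and 0.154% on internal mammary arrays. On internal mammary arrays 7 of 11 probe sets, 1 for each gene but SLA-DQA1, had all 8 exercised pigs above the sedentary mean, as 5.93% of all probe sets had. On brachial arrays this was so for 1 of 11, against 6.69% of all.

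The training change itself was not shown to differ between arteries. In the test of that difference 0 of 11 members passed, as did 0% of all probe sets (limma; 1035 of 23999 at an unadjusted p under 0.05). The estimate was smaller in the brachial artery for 10 of 11 probe sets. For SLA-DOA the brachial change was lower by 0.29 on the log2 scale, with a 95% confidence interval of the difference from -0.70 to 0.12, and for SLA-DMB the interval ran from -0.43 to 0.21.

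The labels give each sample a date, and both training groups were present early and late. Among the 8 pigs with the earlier dates, SLA-DOA in the internal mammary artery averaged 11.33 ± 0.26 in exercised against 10.55 ± 0.46 in sedentary pigs (SD, n = 4 and 4). Among the 7 with the later dates it averaged 10.82 ± 0.20 against 10.41 ± 0.07 (SD, n = 4 and 3). The change averaged over both arteries was 0.64 in the early and 0.28 in the late pigs for SLA-DOA, 0.56 and 0.31 for SLA-DMB, and 0.41 and 0.28 for SLA-DMA. None of these within-period values passed (limma adjusted p = 0.109 and 0.347, 0.0843 and 0.277, and 0.172 and 0.336), and whether early and late pigs differ was not tested.

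The rest of the pathway was read from lists of genes by function, with 1 probe set a gene. Of the endosomal processing genes, 10 of 13 listed were measured, 3 rose on average over both arteries and 0 fell, with a median log2 change of 0.20. Of all probe sets 2.88% were called higher and 1.8% lower in that comparison. The 3 processing genes that rose were CTSD (0.36 ± 0.08), which encodes the aspartic protease cathepsin D, LGMN (0.34 ± 0.09), which encodes the asparagine-specific protease legumain, and CTSB (0.16 ± 0.04), which encodes the cysteine protease cathepsin B (SE; limma adjusted p = 0.00759, 0.0245 and 0.0287). CTSD also rose within the brachial artery (0.41 ± 0.10, limma adjusted p = 0.0289), where 1.02% of all probe sets were called higher. CTSS, whose cathepsin S makes the late cuts in CD74, had 0.17 ± 0.08, and IFI30, which encodes a lysosomal thiol reductase, had 0.23 ± 0.16 (SE; limma adjusted p = 0.230 and 0.456).

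Of the factors that act on class II promoters, 5 of 8 listed were measured. CIITA had an average log2 change of 0.30 ± 0.13 (SE; limma adjusted p = 0.204), and its internal mammary values ran from 7.55 through a median of 8.27 to 8.92 in sedentary pigs and from 8.28 through 8.59 to 8.98 in exercised pigs. NFYB, a subunit of the promoter-binding factor NF-Y, fell by 0.23 on the log2 scale (SE 0.07, limma adjusted p = 0.0373). The other three did not pass. The interferon gamma list had 0 of 9 measured genes passing, with IRF1 at -0.19 ± 0.19, and IFNGR1 (0.16 ± 0.08) and SOCS1 (0.21 ± 0.11) nearest the threshold (SE; limma adjusted p = 0.655, 0.295 and 0.307).

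The neighbouring functions did not pass either. Of the co-stimulatory and surface control genes 0 of 6 passed, and MARCH8, a ligase that draws class II molecules off the surface, was at 0.23 ± 0.09 (SE; limma adjusted p = 0.165). Of MHC class I and its peptide loading genes 0 of 15 passed, with a median log2 change of 0.05 and 13 of 15 estimates above 0. PDIA3, which encodes a chaperone of peptide loading, was at 0.14 ± 0.06, the peptide transporter gene TAP1 at 0.19 ± 0.13 and B2M, the class I light chain, at 0.02 ± 0.03 (SE; limma adjusted p = 0.197, 0.476 and 0.788). No test compared one list with another.

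**Figure D3:**
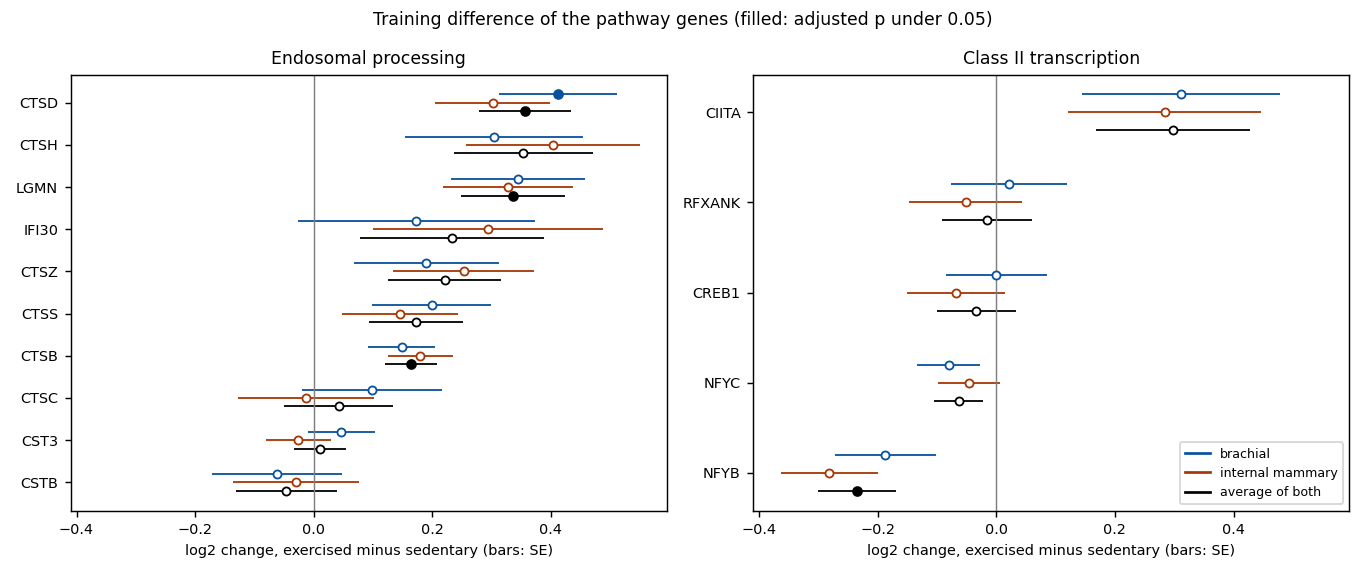
Log2 change of exercised minus sedentary pigs (horizontal axis, bars are SE) for the measured endosomal processing and class II transcription genes in each artery and on average; filled points have a limma adjusted p under 0.05. CTSD (0.36), LGMN (0.34) and CTSB (0.16) are filled to the right of 0 on average, NFYB (-0.23) is filled to the left, and CIITA (0.30) is open.

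Markers of other cells moved with training in part. The mean of 10 macrophage markers was lower in exercised than in sedentary pigs in the brachial artery, by 0.51 on the log2 scale. All 7 exercised values lay under the sedentary mean (exact permutation test, two-sided, p = 0.00233 and 0.0186 after adjustment for 24 tests of marker means). Relative to all arrays it ranged from -0.26 to 0.75 in sedentary and from -0.63 to -0.15 in exercised brachial samples. Its internal mammary range was -0.14 to 0.66 in sedentary and -0.28 to 0.46 in exercised pigs, and the difference was -0.05. C1QC, FCER1G and TYROBP fell in the brachial artery, 3 of 10 measured, where 0.613% of all probe sets were called lower. No macrophage marker rose there. With the macrophage mean as a covariate, where 1.58% of all probe sets passed, SLA-DMA, SLA-DMB and SLA-DOA passed on average. SLA-DRA (0.38, limma adjusted p = 0.0182) and SLA-DQB1 (0.29, limma adjusted p = 0.0307) passed in that fit too. The covariate itself differed with training in the brachial artery, so that fit cannot tell training and macrophage content apart.

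B cells carry class II molecules, and only 2 of 10 B cell markers were measured. CD79B, part of the B cell receptor, rose in the internal mammary artery by 1.46 ± 0.31 on the log2 scale (SE; limma adjusted p = 0.0244), while BLNK, an adaptor downstream of that receptor, fell in the brachial artery by 0.96 (SE 0.19, limma adjusted p = 0.0104). Averaged over both arteries CD79B rose (1.06 ± 0.24, limma adjusted p = 0.0110) and BLNK fell (-0.52 ± 0.15, limma adjusted p = 0.0385). The mean of both ranged from -0.52 to 0.87 in sedentary and from 0.25 to 1.79 in exercised internal mammary samples, relative to all arrays. Of the dendritic cell markers 5 of 13 were measured and 0 passed. The part of B cells in the class II change was not tested.

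Smooth muscle markers did not pass but leaned the other way from the class II genes. All 12 measured had a negative average training estimate, with a median of -0.29 and 0 passing. With their mean as a covariate SLA-DMB was at 0.37 (limma adjusted p = 0.0134) and SLA-DMA at 0.29 (limma adjusted p = 0.0351), whereas SLA-DOA was at 0.38 and no longer passed (limma adjusted p = 0.0605). The second SLA-DMA probe set passed in that fit (0.25, limma adjusted p = 0.0371).

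The class II genes varied together from pig to pig within an artery. Each gene was taken by its probe set with the highest mean. In sedentary internal mammary samples pig 11_1 was the lowest for 8 of 8 genes, and in sedentary brachial samples pig 10_2 was. Exercised pig 15_4 was the lowest for 8 of 8 genes in the brachial artery and exercised pig 14_3 for 7 of 8 in the internal mammary artery. At the top, exercised pig 10_5 led for 7 of 8 genes in the internal mammary and 5 of 8 in the brachial artery, and sedentary pig 12_3 for 5 of 8 and 7 of 8.

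Over the 28 pairs of genes Pearson's r ranged from 0.49 to 0.95 with a median of 0.78 in the 14 brachial samples, and from 0.53 to 0.96 with a median of 0.88 in the 15 internal mammary samples. Spearman's rho ranged from 0.44 to 0.96 and from 0.64 to 0.95. Of these, 26 and 28 pairs had an adjusted permutation p under 0.05 for r, over a family of 64 correlations. Without the 2 pigs farthest from the median of the first gene, r was 0.24 to 0.92 and 0.40 to 0.95. Within the early pigs r was 0.69 to 0.97 and 0.72 to 0.98, and within the late pigs 0.31 to 0.98 and 0.13 to 0.98. After the mean of each training group was subtracted r was 0.44 to 0.95 and 0.46 to 0.93.

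The DM chains tracked each other closely in both arteries, with r = 0.94 and rho = 0.96 in brachial samples and r = 0.96 and rho = 0.95 in internal mammary samples (adjusted permutation p = 7.11e-05 and 4.57e-05 for r). In brachial samples the highest pair was CD74 with SLA-DQB1 (r = 0.95, rho = 0.96). SLA-DQA1 with SLA-DOA (r = 0.91 and 0.85) and SLA-DRA with SLA-DQB1 (r = 0.89 and 0.96) were high in both arteries as well. The lowest pairs were SLA-DRB1 with SLA-DOA in brachial samples (r = 0.49, adjusted permutation p = 0.0786) and SLA-DQA1 with CD74 in internal mammary samples (r = 0.53, adjusted permutation p = 0.0450). Among the 6764 other gene symbols, and after subtracting the 4 group means over the 29 arrays, the symbol most like SLA-DMA was SLA-DMB (r = 0.92), and the symbol most like SLA-DQA1 was SLA-DOA (r = 0.94). For SLA-DRA the 5 most alike were all class II genes: SLA-DQB1, SLA-DQA1, SLA-DOA, SLA-DRB1 and SLA-DMB (r = 0.90 to 0.81). For SLA-DRB1 the most alike was LOC106504372 (r = 0.96), an unnamed locus that lies between SLA-DQB1 and SLA-DOB in the reference order. It was followed by LPCAT2 (r = 0.87), the endothelial receptor gene TEK, SLA-DRA and OSTF1 (r = 0.84 each).

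A pig's level in one artery told less about the other. Over 14 pigs r between the brachial and the internal mammary value of a gene ranged from 0.24 for SLA-DRB1 to 0.72 for SLA-DQA1, and 4 of 8 genes had an adjusted permutation p under 0.05: SLA-DQA1, SLA-DOA (0.70), SLA-DMB (0.65) and SLA-DMA (0.55). Spearman's rho for the same pairs ranged from 0.16 to 0.66. Within the early pigs r was 0.35 to 0.78 and within the late pigs -0.51 to 0.78, with SLA-DQA1 at -0.15 there. Without the 2 pigs farthest from the median r was 0.19 to 0.64, and after the mean of each training group was subtracted SLA-DMB was at 0.37 and SLA-DMA at 0.29. Pig 10_2 shows the gap between arteries. It was the lowest sedentary pig for 8 of 8 genes in the brachial artery and the highest sedentary pig for 3 of 8, among them SLA-DMA and SLA-DMB, in the internal mammary artery.

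Smooth muscle markers were high in several of the arrays lowest in class II genes. Pig 10_2 had the highest smooth muscle mean of its group in the brachial artery (1.29 relative to all arrays), pig 11_1 in the sedentary internal mammary group (0.92) and pig 14_3 in the exercised internal mammary group (0.71), while pig 15_4 was next to the highest of its group (0.77). Other exercised brachial arrays went the other way: pig 11_3 had the highest smooth muscle mean (0.95) and the highest CD74, and pig 10_5 was above the group mean (0.57) and led for 5 of 8 genes. Over internal mammary samples all 8 genes correlated negatively with the smooth muscle mean over 15 pigs, with r from -0.73 to -0.57 and rho from -0.81 to -0.55 (adjusted permutation p for r = 0.0131 to 0.0435 over 16 correlations, and under 0.05 for rho in 7 of 8, SLA-DMB being at 0.0689). Without pigs 11_1 and 14_3 r was -0.58 to -0.23, and within the early and late pigs it was -0.99 to -0.72 and -0.78 to -0.10. Over brachial samples r was -0.60 to -0.29 and rho -0.53 to -0.24 over 14 pigs, and SLA-DRB1 alone had an adjusted permutation p for r under 0.05 (0.0438; 0.132 for rho). Without pigs 10_2 and 11_3 r was -0.48 to -0.25, and within the early and late pigs -0.51 to -0.15 and -0.92 to -0.67.

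After a straight-line fit on the smooth muscle mean r between members was 0.40 to 0.97 (median 0.75) in brachial and 0.22 to 0.95 (median 0.78) in internal mammary samples. SLA-DMA with SLA-DMB was then at 0.93 and 0.95, whereas internal mammary pairs of SLA-DQA1 were lower than before the fit, at 0.26 with SLA-DRB1 (0.61 before), 0.31 with SLA-DMA (0.65 before) and 0.22 with CD74 (0.53 before). None of 80 correlations of members with the macrophage, dendritic cell, B cell, T cell or endothelial marker mean had an adjusted permutation p under 0.05. After the mean of each training group was subtracted, the members' r with the macrophage mean was 0.61 to 0.85 in brachial and 0.14 to 0.41 in internal mammary samples. With the dendritic cell mean it was then 0.44 to 0.74 and -0.02 to 0.40, and with the B cell mean 0.25 to 0.78 and -0.26 to 0.36. With the T cell mean it was 0.24 to 0.49 and 0.28 to 0.51, and with the endothelial mean 0.12 to 0.55 and 0.15 to 0.48. These values after subtraction were not tested. The B cell mean holds only CD79B and BLNK, which went opposite ways with training, so correlations with it need not follow B cell content.

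**Figure D4:**
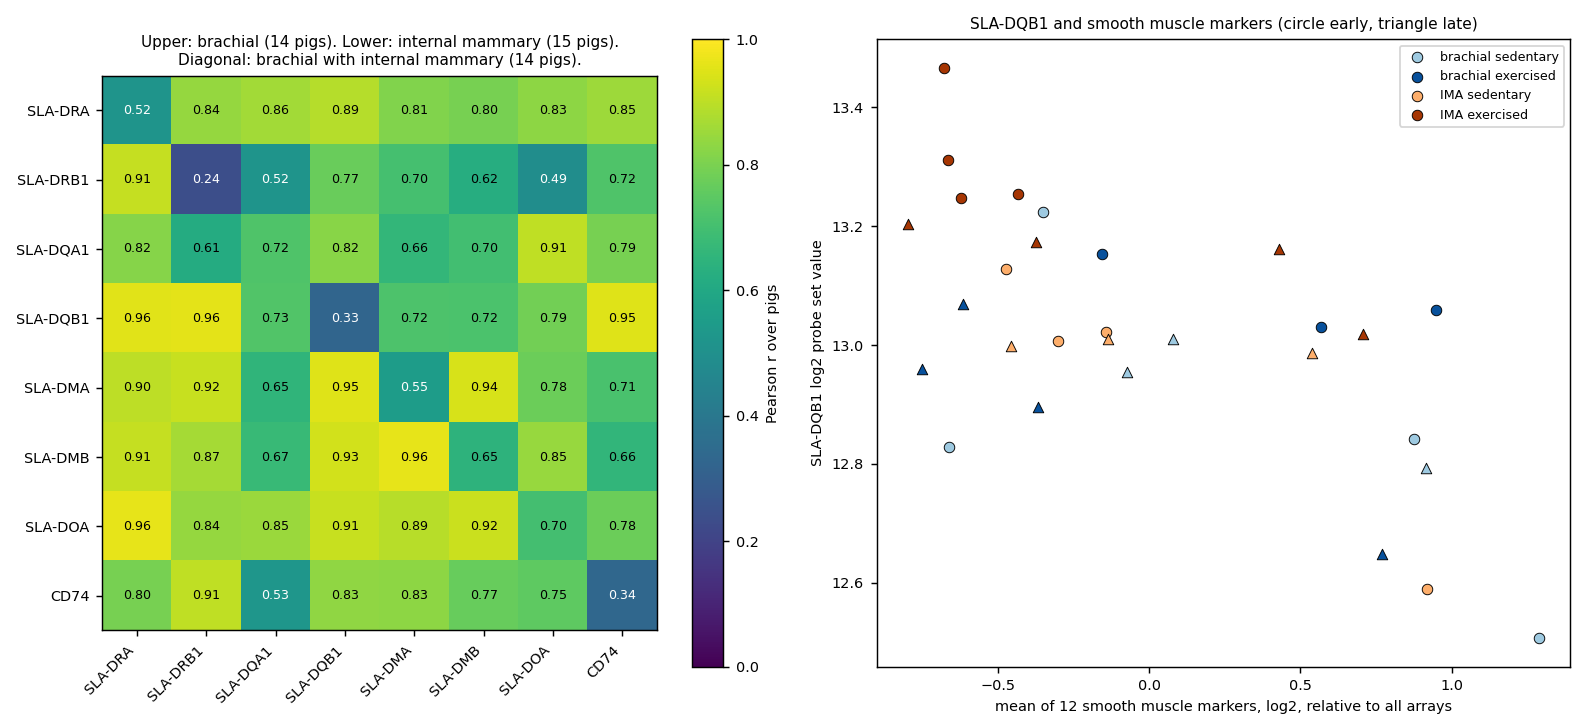
Left: Pearson r over pigs between the 8 genes in brachial (upper triangle) and internal mammary samples (lower triangle), with each gene's r between arteries on the diagonal. Right: SLA-DQB1 log2 value against the mean of 12 smooth muscle markers in each of 29 arrays, by artery and training. Pairs within an artery reach r = 0.96 while the diagonal runs from 0.24 to 0.72. SLA-DQB1, the gene of the 8 with the strongest internal mammary correlation (r = -0.73, brachial r = -0.53), is lowest in arrays with a high smooth muscle mean. Not all such arrays are low: brachial pig 11_3 has a smooth muscle mean of 0.95 and SLA-DQB1 at 13.06.

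The second question was whether class II transcripts differ between the arteries. CD74 was higher in the brachial artery in every pig, by 1.66-fold on average. Of the class II chains SLA-DRA, SLA-DQB1 and the brightest SLA-DRB1 probe set were slightly lower there, a dim SLA-DRB1 probe set was higher, and SLA-DMA, SLA-DMB, SLA-DOA and SLA-DQA1 did not pass. Over training groups 2 of 11 probe sets were called higher and 4 lower, where 54.3% of all probe sets were called, 31.8% higher and 22.5% lower (limma, adjusted p under 0.05). So many probe sets differed between arteries that this number of calls is near the share of all.

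CD74 ran from 13.39 through a median of 13.58 to 13.84 in sedentary and from 13.45 through 13.67 to 13.78 in exercised brachial samples, on the log2 scale. In the internal mammary artery it ran from 12.21 through 12.85 to 13.00 in sedentary and from 12.83 through 13.04 to 13.11 in exercised pigs. Every brachial value lay above every internal mammary value. Within pigs the difference ran from 0.40 through a median of 0.70 to 1.29 and was positive in 14 of 14 (two-sided exact sign-flip p = 0.000122, the smallest 14 pigs allow, unadjusted and 1 of 33 such tests of members). The fitted difference was 0.73 ± 0.05 (SE; limma adjusted p = 6.1e-12), with 0.82 ± 0.08 in sedentary and 0.65 ± 0.08 in exercised pigs (limma adjusted p = 4.4e-09 and 9.33e-08).

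No other member was one way in every pig, whereas 8.08% of all probe sets were higher and 7.59% lower in the brachial artery in every pig. The difference of CD74 stayed at 0.68 to 0.81 and passed in all 15 alternative fits, and at 0.69 to 0.77 with a pig left out. CD74 minus SLA-DRA within an array was 0.34 to 0.91 in brachial and -0.57 to -0.06 in internal mammary samples, which shows that the 2 probe sets changed unequally between arteries.

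Control signals moved with artery in the same direction. The 18 probe sets for transcripts spiked in before hybridization were all higher on brachial arrays, by a median of 0.76 and a range of 0.09 to 0.89 on the log2 scale, and 16 of them in 14 of 14 pigs. The 24 labelling control probe sets had a median of 0.11. They were dim, with brachial means of 2.54 to 5.84 where the lowest array median was 7.13. Whether they read above background is not known, so their median does not show that labelling was alike. The median of the array was lower on the brachial array in 14 of 14 pigs, by 0.05 on average. The part of the hybridization in the CD74 difference was not tested.

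**Figure D5:**
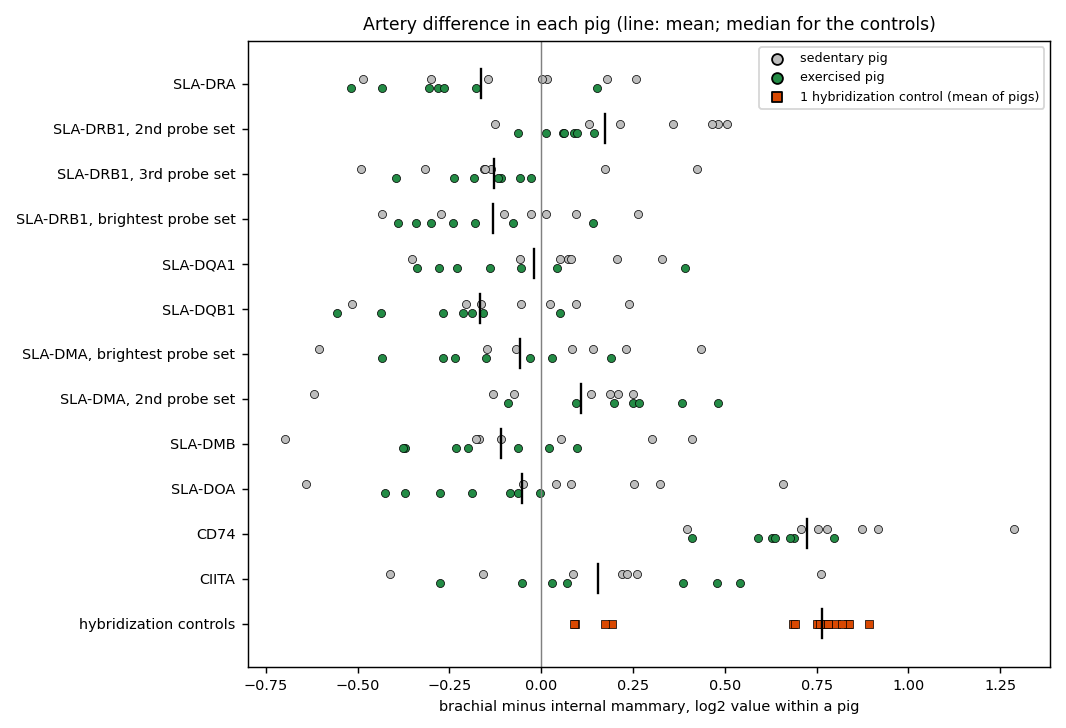
Brachial minus internal mammary log2 value in each of 14 pigs (points, grey sedentary, green exercised; lines are means) for the 11 probe sets and CIITA, with the mean difference of each of 18 hybridization control probe sets as squares (line at their median). CD74 is above 0 in 14 of 14 pigs, from 0.40 to 1.29, while the class II chains scatter around 0. The mean of CD74 (0.72) lies in the range of the means of the hybridization controls (0.09 to 0.89), and its highest pigs lie above that range.

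Among the class II chains the differences were small. SLA-DQB1 was at -0.17 ± 0.06, SLA-DRA at -0.16 ± 0.07 and the brightest SLA-DRB1 probe set at -0.13 ± 0.05 on the log2 scale (SE; limma adjusted p = 0.0122, 0.0444 and 0.0279), lower in the brachial artery in 10, 9 and 10 of 14 pigs. The dim SLA-DRB1 probe sets were called in opposite directions (0.18 and -0.14; limma adjusted p = 0.00252 and 0.0441). The call of SLA-DRA was lost without any 1 of pigs 10_1, 10_2, 10_5, 11_3, 11_4, 12_5, 13_2, 15_1, 15_2, 15_4 or 17_1 (-0.17 to -0.13), and that of the brightest SLA-DRB1 probe set without any 1 of pigs 10_1, 10_2, 11_3, 13_2 or 15_4 (-0.13 to -0.10). That of the dim SLA-DRB1 probe set that was lower was lost without any 1 of pigs 10_5, 11_1, 11_3, 11_4, 12_2, 12_3, 12_5, 14_3, 15_1, 15_2 or 17_1 (-0.14 to -0.10), whereas SLA-DQB1 kept its call with each pig left out. With the pig as a fixed block (within-pig differences) SLA-DQB1 and SLA-DRA passed (limma adjusted p = 0.0245 and 0.0367), and the brightest and the lower dim SLA-DRB1 probe sets did not (limma adjusted p = 0.0566 and 0.0900). With arrays centred on the same median, where 56.7% of all probe sets were called, none of the 4 lower calls remained. The macrophage marker mean was lower in the brachial artery too, by 0.30 on the log2 scale in 12 of 14 pigs (two-sided exact sign-flip p = 0.00488, adjusted p = 0.0293 over 24 marker tests). With it as a covariate, where 44.5% of all probe sets were called, the number of lower calls was 0, with SLA-DQB1 at -0.05 and SLA-DRA at -0.01. As the covariate itself differed between arteries, that fit cannot tell artery and macrophage content apart.

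In sedentary pigs alone CD74 and a dim SLA-DRB1 probe set were the 2 members called higher and 0 were lower, against 20.5% of all probe sets called higher and 14.2% called lower (34.8% in all). In exercised pigs, where 41.2% passed, 24.2% higher and 17% lower, CD74 and the second SLA-DMA probe set (0.23 ± 0.08) were higher, and SLA-DRA (-0.25 ± 0.09), SLA-DQB1 (-0.26 ± 0.08) and the brightest SLA-DRB1 probe set (-0.20 ± 0.07) were lower (SE; limma adjusted p = 0.0283, 0.0310, 0.0103 and 0.0247). With the pig as a fixed block the second SLA-DMA probe set and the brightest SLA-DRB1 probe set no longer passed there (limma adjusted p = 0.0663 and 0.0571). In exercised pigs the call of SLA-DRA was lost without any 1 of pigs 10_1, 11_3, 12_5 or 15_4 (-0.25 to -0.22), that of SLA-DRB1 without 10_1, 10_5, 11_3 or 15_4 (-0.20 to -0.17) and that of the second SLA-DMA probe set without 10_5, 11_3, 12_5 or 15_4 (0.18 to 0.23). That the arteries differed more in one training group than in the other was not shown, since 0 members passed the test of that difference.

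Among the processing genes CTSB (0.19 ± 0.03), CTSZ (0.30 ± 0.07), CTSC (0.24 ± 0.07) and IFI30 (0.41 ± 0.12) were higher in the brachial artery, 4 of 10 measured with 0 lower, where 31.8% of all probe sets were called higher and 54.3% either way (SE; limma adjusted p = 2.64e-05, 0.00101, 0.00563 and 0.00493). CIITA was not called (0.16 ± 0.10, limma adjusted p = 0.200) and NFYB was lower (-0.18 ± 0.05, limma adjusted p = 0.00491). Of the co-stimulatory list CD86 (-0.28 ± 0.08) and CD83 (-0.47 ± 0.13) were lower and CD4, a dim probe set at a mean of 5.01, was higher (0.33 ± 0.09) (SE; limma adjusted p = 0.0043, 0.00313 and 0.00178). Of the interferon gamma list 3 of 9 were higher, IFNG, IRF1 and SOCS1, and IRF8 was lower. The share of higher calls lies near the 31.8% of all probe sets. Of the class I list CALR and SLA-2 were higher and CANX and SLA-7 lower, out of 15 measured.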

How the data were processed

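RNA from the scraped lining of 2 arteries of 15 pigs was hybridised to 29 single-colour Affymetrix porcine arrays. The authors deposited 1 log2 value per probe set and array; affy is named in the submitters' processing notes, and the background correction, normalization and summary are not given in the sources used here. Array number limits the precision. Groups follow the titles and treatment tags; in the 8 samples of exercised internal mammary artery the source field says sedentary instead.

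limma 3.58.1 under R 4.3.3 estimated a mean for each of the 4 groups, taking the pig as a random block (duplicateCorrelation, consensus 0.255), with Benjamini-Hochberg adjustment over 23999 probe sets after 124 control probe sets were left out, at 0.05. The pairing comes from the pig labels. Tested on simulated data for the average training change, this fit recovered 97% of 100 log2 changes of 1 and 76% of 100 of 0.4 over 23999 probe sets, with 7 false calls. The simulation gave every probe set the same pig correlation, 0.25, so these figures do not cover members with a higher one. After subtraction of training group means, r between arteries was 0.61 for SLA-DOA, 0.37 for SLA-DMB and 0.29 for SLA-DMA. Exact permutation and sign-flip tests and correlations (100000 permutations) used scipy 1.17.1 and numpy 2.4.6. A marker mean is the mean over measured list genes of each gene's value minus its mean over all arrays.

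Named genes are all members, list genes that passed and otherwise those with the lowest p, and CIITA, IRF1, CTSS, IFI30 and LGMN; B2M and the cell type markers named were chosen after their values were seen. Symbols are the platform's, with 1 symbol for 10069 probe sets, several for 198 and none for 13732; all 11 members match the reference table. Alternatives covered the block, dim probe sets, centring, renormalization, the prior, array weights, 28S/18S, date and marker covariates, early or late pigs alone and each pig left out. Members and lists were chosen with earlier results of these data known, and smooth muscle correlations after seeing the data. The 33 exact tests of members are unadjusted. T cell, fibroblast and adipocyte lists were also read: 0 of 7, 0 of 7 and 0 of 5 measured genes passed in the average training comparison. Of the endothelial list 1 of 13, CLDN5, rose.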

Additional observations from a re-analysis of the deposited data

Results flagged for a closer look

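Of 44 combinations of a member probe set and a group, 5 had a pig far from the rest of its group by Dixon's criterion. In a single combination chance alone meets it in about 1 of 20. Members vary together from pig to pig, so the 44 are not independent and that rate cannot be set against the 5. Sedentary pig 11_1 was the low sample in the internal mammary artery for 3 of them, with SLA-DRB1 (brightest probe set) at 12.86, SLA-DQB1 at 12.59 and CD74 at 12.21 on the log2 scale, where the next values were 13.25, 12.99 and 12.74. Sedentary pig 12_3 was the high sample for SLA-DQA1 in both arteries, at 13.42 in brachial and 13.09 in internal mammary samples, where the next values were 12.63 and 12.66. Without pig 11_1 the average training changes of SLA-DMA and SLA-DOA lost their calls. Without pig 12_3 that of SLA-DRA gained one. Nothing was tested about why these samples stand apart.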

How the results depend on the processing

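Counts of the 11 member probe sets that passed depended on the setting. Percentages in brackets are the share of all probe sets called in the same fit, either way. For the average training change (3 higher, 4.68%) the count was 0 on the means of the 14 pigs with both arteries (1.52%). It was 0 in the early (1.05%) and 0 in the late pigs alone (0.117%). With the macrophage mean as covariate it was 5 (1.58%), and with a pig left out 1 to 4 (2.94% to 5.1%). In the internal mammary artery (0 higher, 0.596%) it was 2 with array weights (1.4%) and 2 with early or late date as a factor (0.867%). It was 1 each with the 28S/18S ratio (1.14%), the macrophage mean (0.646%) and the smooth muscle mean (1.01%). With the endothelial mean it was 6 (1.86%), and with a pig left out 0 to 3 (0.146% to 1.21%). In the brachial artery (0 higher, 1.63%) it was 1 with the smooth muscle mean (3.22%) and 1 with the endothelial mean (2.09%). It was 0 there with any pig left out (0.621% to 2.45%). Between arteries the 2 higher calls became 1 without the dimmest 33.3% of probe sets (56.1%) and in the early pigs (37.6%). In sedentary pigs they became 1 in the same settings (37.6% and 16.4%). With a pig left out they were 2 to 3 over training groups (51.3% to 55.1%) and 2 in sedentary pigs (30% to 35.1%). In exercised pigs they became 1 without the replicate block (33.5%), with a fixed one (39%) and with 28S/18S (38.9%). They were also 1 there in the early (22.3%) or late pigs (24.8%) and with the macrophage mean (25.8%). With a pig left out they were 1 to 2 in exercised pigs (35.1% to 43.8%).

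The 4 lower calls between arteries became 1 without the replicate block (47.7%) or with 28S/18S (46%). They became 2 with a fixed block (53.1%) or the smooth muscle mean (59.6%). They became 0 with centring (56.7%), in the early (37.6%) or the late pigs (35.8%) or with the macrophage mean (44.5%). With a pig left out they were 1 to 3 (51.3% to 55.1%). The 3 lower calls in exercised pigs became 1 without the block (33.5%) and in the late pigs (24.8%), and 2 with a fixed block (39%). They became 0 with centring (44.5%), in the early pigs (22.3%) and with the macrophage mean (25.8%). With a pig left out they were 1 to 4 (35.1% to 43.8%). SLA-DRA in exercised pigs turned from -0.25 to 0.0032 with the macrophage mean (limma adjusted p = 0.988). SLA-DOA lost its average training call with centring (0.44, limma adjusted p = 0.0509). Of the member values under alternatives 2143 kept their side of the threshold, 117 lost a call and 35 gained one. In 1 the sign reversed where the main or the alternative fit had a call. Sign changes with a call in neither fit were counted among the 2143, so that number does not mean a kept direction. An example is SLA-DQA1 in the brachial training change, at -0.06 to 0.37. The causes were not tested. No signal over background is given, so whether the dim SLA-DRB1 probe sets measured their transcript is not known.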
